A study of Mus musculus with 8 samples.

Results

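Kinetochore and spindle checkpoint genes encode the proteins that build the centromere, hold chromosomes to spindle microtubules and delay anaphase until every chromosome is attached. They were chosen as 36 gene symbols, and all probes whose platform symbol was one of them were taken. Of the 36 genes, 32 had at least 1 of 46 probes among the 25697 probes of the table, and 25 were measured, against 8633 genes measured in all. Rescued cells were primary carotid vascular smooth muscle cells of male PMCA4 knockout mice, C57bl6 in background, electroporated with PMCA4a cDNA (4 arrays). The other group was PMCA4 knockout cells of the same source without that cDNA (4 arrays). Both groups lack their own PMCA4, a pump that exports calcium across the cell membrane and is encoded by Atp2b4, and both were synchronised with serum, restarted by serum and PDGF-BB and collected in late G1/S. The labels name no ages and do not tell whether replicates came from different cultures or mice. The p-values therefore cover the spread among these 8 arrays, which may be technical. No knockout cells electroporated without PMCA4a were analysed here, so electroporation and PMCA4a cannot be told apart. Whether both groups stood at the same point of the cycle was not tested.

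In a dividing cell the centromere is marked by nucleosomes that carry the histone variant CENP-A, which the chaperone HJURP deposits. An inner network of CENP proteins sits on this chromatin, and an outer network, built on the MIS12 and NDC80 complexes, grips microtubules. Unattached kinetochores gather BUB and MAD proteins, which hold the anaphase-promoting complex in check, while the chromosomal passenger complex corrects faulty attachments. In many cycling cell types transcripts of these genes are scarce after division and abundant before and during mitosis. Promoters of such genes often carry the cell cycle genes homology region, called CHR, together with CCAAT boxes, while E2F sites are common in genes expressed before replication.

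Promoter windows are shown for the members with the largest differences in 4 role groups, and for Cenpt, which moved the other way and was chosen after its values were seen. Each window is RefSeq sequence of GRCm38.p6, from 250 bases before to 50 after the annotated start, 5′ to 3′ on the gene's strand. Capitals mark CHR letters (TTTGAA or TTTAAA), the CCAAT box (CCAAT) and E2F letters (TTCCCGC, or TTGGCGC, or TTCGCGC, or TTGCCGC), on either strand, so that CCAAT on the other strand reads ATTGG; matches may overlap.
Cenpm, chr15:82244287-82244586, minus strand: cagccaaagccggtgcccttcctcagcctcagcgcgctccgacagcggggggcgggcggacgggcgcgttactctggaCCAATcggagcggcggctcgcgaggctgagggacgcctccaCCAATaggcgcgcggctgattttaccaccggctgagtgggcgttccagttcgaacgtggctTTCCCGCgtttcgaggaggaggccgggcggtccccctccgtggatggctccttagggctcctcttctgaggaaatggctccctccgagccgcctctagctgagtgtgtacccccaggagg
Cenpa, chr5:30666636-30666935, plus strand: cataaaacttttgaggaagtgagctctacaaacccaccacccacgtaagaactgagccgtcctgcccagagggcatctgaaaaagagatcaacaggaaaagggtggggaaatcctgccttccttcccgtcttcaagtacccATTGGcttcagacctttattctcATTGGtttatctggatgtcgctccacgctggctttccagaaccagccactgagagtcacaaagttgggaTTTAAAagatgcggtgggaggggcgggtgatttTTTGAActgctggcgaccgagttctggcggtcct
Birc5, chr11:117848987-117849286, plus strand: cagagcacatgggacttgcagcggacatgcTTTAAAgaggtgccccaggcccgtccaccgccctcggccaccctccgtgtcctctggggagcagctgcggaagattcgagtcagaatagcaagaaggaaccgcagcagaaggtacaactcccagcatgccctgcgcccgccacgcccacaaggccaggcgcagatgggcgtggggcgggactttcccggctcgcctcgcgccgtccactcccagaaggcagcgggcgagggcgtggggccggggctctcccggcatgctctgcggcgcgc
Bub1b, chr2:118597961-118598260, plus strand: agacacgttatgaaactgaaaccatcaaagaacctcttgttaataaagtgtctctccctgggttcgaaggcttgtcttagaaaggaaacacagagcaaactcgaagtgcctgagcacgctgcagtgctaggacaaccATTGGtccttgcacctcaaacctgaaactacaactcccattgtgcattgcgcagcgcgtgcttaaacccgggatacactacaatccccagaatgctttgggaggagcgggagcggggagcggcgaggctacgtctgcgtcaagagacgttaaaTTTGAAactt
Cenpt, chr8:105851959-105852258, minus strand: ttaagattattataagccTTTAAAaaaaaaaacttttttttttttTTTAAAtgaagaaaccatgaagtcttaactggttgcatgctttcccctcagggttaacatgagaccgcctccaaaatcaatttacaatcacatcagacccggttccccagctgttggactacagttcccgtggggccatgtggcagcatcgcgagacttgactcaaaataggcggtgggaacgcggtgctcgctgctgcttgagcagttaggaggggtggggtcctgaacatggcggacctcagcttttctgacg

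The Cenpa window holds 2 CCAAT boxes upstream and CHR letters on both sides of its start, the Cenpm window 2 CCAAT boxes and 1 E2F match, and the Bub1b window 1 CCAAT box and CHR letters after the start. In the Birc5 window CHR letters begin at base -220 from the start, and in the Cenpt window at bases -232 and -205. Of the 36 members, 31 matched the promoter table, with 34 windows, and Aurkb, Incenp, Nsl1, Spc24 and Zwilch had none; a gene with several annotated starts has several windows, which can overlap. CHR letters were in 55.9% of the 34 member windows and 27.6% of all 32851 windows, CCAAT in 70.6% and 37.4%, and E2F letters in 29.4% and 9.57%. Split by call, the 17 windows of members that rose and the 8 windows of members that were measured and did not rise held CHR letters in 9 and 4 windows, CCAAT in 12 and 5, both together in 6 and 3, and E2F letters in 4 and 3. Within 50 bases of the start, CHR letters were in 7 windows (41.2%) of members that rose and 1 (12.5%) of the others, and in 8.54% of all windows. None of these splits was tested. The windows of Cenpp and Mad2l1, which rose, hold none of these letters. A match is a description of letters and not a binding site.

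**Figure D1:**
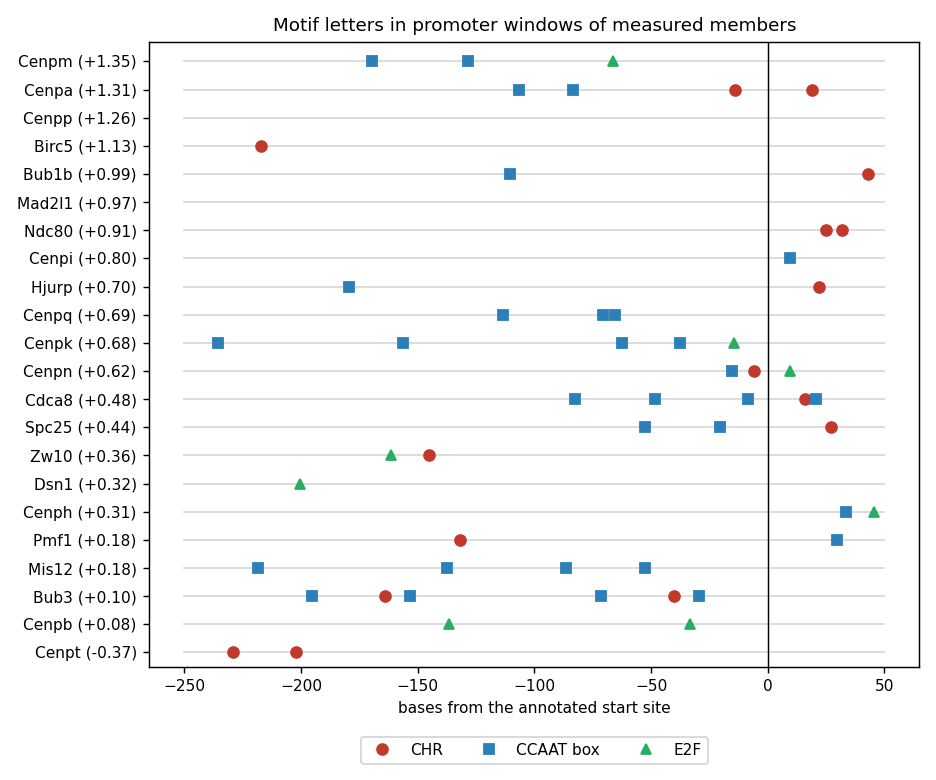
Positions of CHR letters (circles), CCAAT boxes (squares) and E2F letters (triangles) in promoter windows of the 22 measured members that have one, in bases from the annotated start, with the log2 difference of each gene (rescued minus knockout) after its name. CHR letters lie within 50 bases of the start in Cenpa, Bub1b, Ndc80, Hjurp, Cenpn, Cdca8, Spc25 and Bub3; genes with several windows have all of them drawn on 1 line.

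Gene expression was read on Illumina bead arrays, where the number of arrays limits the precision. Between 12640 and 12873 probes were detected on the rescued arrays and between 12223 and 12427 on the knockout arrays, at a detection p under 0.05. A probe was kept when detected on at least 4 of the 8 arrays, and a gene with several kept probes is represented by the brightest. Levels are log2 intensities after background correction and quantile normalization, differences are rescued minus knockout, and a call is a Benjamini-Hochberg adjusted p under 0.05 over all 12658 kept probes in limma. Over these probes 38.8% were called. The Atp2b4 probe that was kept had 5.25, 5.73, 5.69 and 5.47 in rescued cells, against 5.82, 5.58, 5.34 and 5.31 in knockout cells. The groups overlapped (difference 0.02, adjusted p = 0.911 in limma), and the gene's 2 further probes were below detection on all 8. The sources used here do not place these probes relative to the cDNA or the deletion, so the arrays do not check the group labels. Of 10 smooth muscle markers listed, 7 were kept, and Cnn1 and Lmod1 were not detected on any array. At the brightest probe of each, Actg2, Tagln and Tpm2 fell (differences -2.85, -1.43 and -0.66) and Myocd and Smtn rose (1.70 and 0.43). Acta2 and Des differed by -0.03 and -0.04 and did not pass. The other kept Tpm2 probe differed by 0.92, in the opposite direction, so the 2 probes of Tpm2 give no common direction. Myocd was detected on every rescued array and 1 knockout array, so it was kept through the rescued arrays and the size of its rise is uncertain. Their summed normalized intensity ran from 61200 to 68600 on rescued and from 68200 to 73200 on knockout arrays, and most of it was Acta2. In bulk samples such as these, fewer cells of a kind and less RNA per cell cannot be told apart.

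Most measured kinetochore and checkpoint genes were higher in rescued cells. Of 25 measured members, 17 rose (68.0%), 1 fell and 7 did not pass, where 21.0% of all 8633 genes rose and 18.9% fell, 39.9% being called in either direction. The median log2 difference of the members was 0.64 (1.56-fold), beside 0.01 for all measured genes. At least 1.5-fold rises that passed numbered 14 among members, against 7.54% of all genes, and 4 members, Cenpm, Cenpa, Cenpp and Birc5, rose at least 2-fold, against 2.98% of all genes. The rescued and knockout arrays did not overlap at 19 members, where 40.9% of all genes did not. By probe, 27 of 36 kept member probes were higher and 1 was lower, against 20.0% higher among all kept probes. No member was kept through detection in 1 group alone.

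The rises did not rest on 1 array, although rescued replicate 3 was the highest rescued array at 14 of 25 members. Over the measured members the median excess over the knockout mean was 0.50, 0.65, 0.74 and 0.65 on rescued replicates 1 to 4, and from -0.01 to 0.05 on the knockout arrays. Without rescued replicate 3, 18 members were higher and 1 lower, with a median difference of 0.58. That array also stood apart in the summed adventitial fibroblast markers, of which 6 of 8 were kept, 4 fell and 0 rose, and Lum was not detected on any array. Their summed normalized intensity was 16100 on rescued replicate 3, from 3460 to 4620 on the other rescued arrays and from 11700 to 13000 on the knockout arrays. Dcn and Dpt, neither of which passed, were the markers that carried the sum on rescued replicate 3, at 13.35 and 12.05, where the other rescued arrays reached 11.05 and 10.07. Pdgfra and Pi16, which fell, were also highest on rescued replicate 3 among rescued arrays, at 9.47 and 6.94, the others reaching 9.28 and 6.09. Mfap5, which fell too, was lowest there among rescued arrays, at 8.99 beside 9.56 to 10.33. Col14a1 stood at 5.66, beside 5.65 on rescued replicate 4. Of 8 endothelial, 8 leukocyte and 5 epithelial markers, 2 each were kept. Their sums ran from 96.9 to 149, from 193 to 228 and from 153 to 361 on rescued arrays, against 72.9 to 93.3, 113 to 178 and 66.4 to 80.0 on knockout arrays. Of the endothelial pair, Kdr differed by 0.01 and did not pass, and Vwf, kept through rescued arrays alone and so able to count only as a rise, was at least 1.53-fold higher. Of the leukocyte pair, Lyz2 rose by 2.14 and Cd53 fell by 1.24. Of the epithelial pair, Krt19 rose by 2.62, and Cdh1 differed by 0.25 and did not pass. Lyz2 and Krt19 were each detected on every rescued array and 1 knockout array, so they were kept through the rescued arrays. Their knockout levels lay mostly below detection, which leaves the size of these rises uncertain. The defining endothelial markers Pecam1 and Cdh5 and the leukocyte markers Ptprc and Adgre1 were not detected on any array, nor was the epithelial marker Krt18. The part of any of these cells in the result was not tested.

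**Figure D2:**
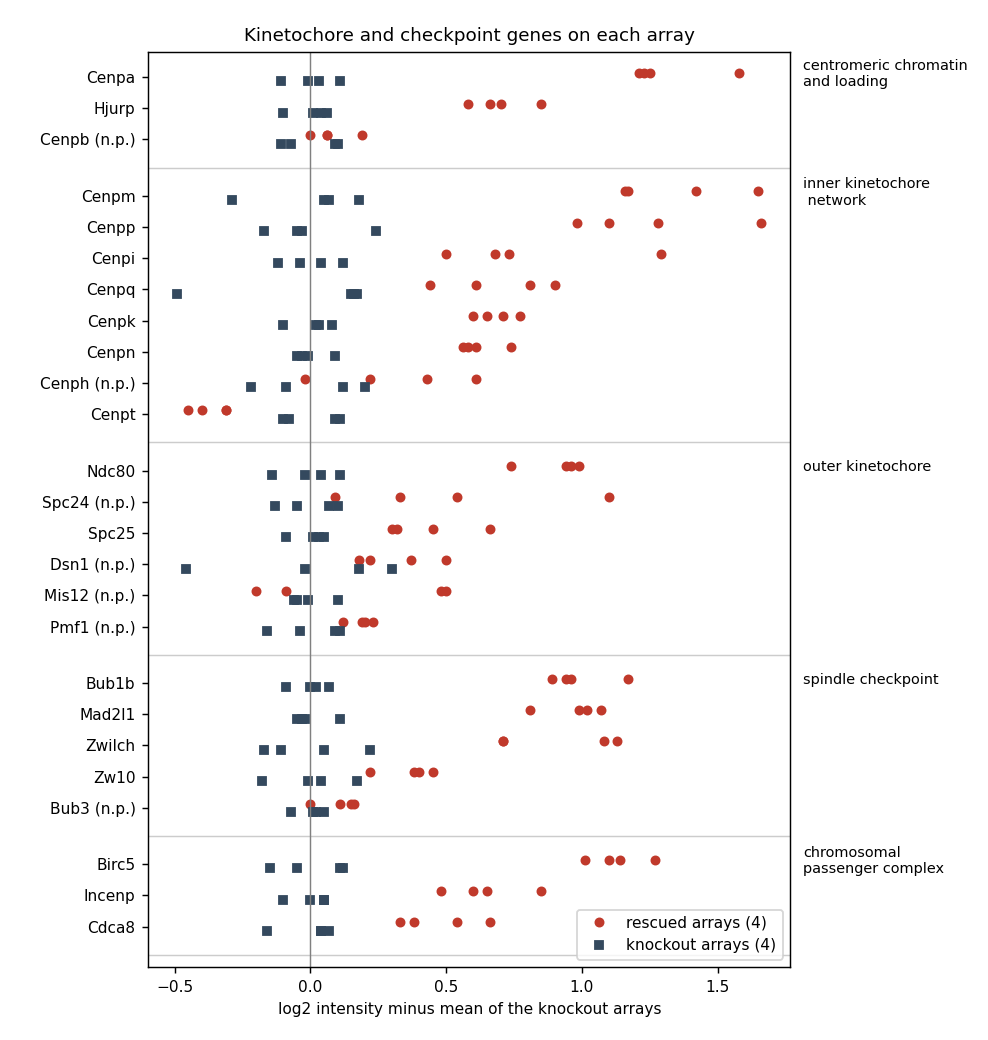
Log2 intensity of each measured member on each array minus the mean of its 4 knockout arrays, with rescued arrays as circles and knockout arrays as squares, by role; n.p. marks the 7 members that did not pass. Rescued circles lie right of every knockout square for the 17 members that rose and for Pmf1, and left of them for Cenpt.

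Among genes of centromeric chromatin, Cenpa and Hjurp rose and Cenpb did not pass. Cenpa, the centromeric histone (probe ILMN_1236574), had log2 intensities of 13.50, 13.52, 13.87 and 13.54 in rescued cells, against 12.40, 12.28, 12.18 and 12.32 in knockout cells. As deposited, before normalization, its intensity ran from 11229 to 15163 on rescued arrays and from 4576 to 5484 on knockout arrays. Every rescued array was thus above every knockout array, with a log2 difference of 1.31 (SE 0.097, 2.49-fold, adjusted p = 1.05e-05 in limma).

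Hjurp, the chaperone that loads CENP-A, had 11.43, 11.55, 11.70 and 11.51 in rescued cells, against 10.91, 10.86, 10.89 and 10.75 in knockout cells. The groups did not overlap, and the difference was 0.70 (SE 0.078, adjusted p = 0.000137). Cenpb, which binds a sequence in centromeric satellite DNA, had 13.00, 12.87, 12.81 and 12.87 in rescued cells, against 12.90, 12.70, 12.91 and 12.74 in knockout cells. These groups overlapped, with a difference of 0.08 (adjusted p = 0.478). Oip5, a subunit of the complex that prepares centromeres for loading, had no probe by symbol here, while Mis18a, another subunit of that complex outside the member list, averaged 11.30 ± 0.099 on rescued and 10.89 ± 0.063 on knockout arrays (SD, n = 4 each), and rose by 0.40 (adjusted p = 0.0023). Mis18a was chosen after its values were seen.

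Of 11 genes of the inner kinetochore network, 8 were measured, of which 6 rose, 1 fell and 1 did not pass. Among all genes 21.0% rose and 18.9% fell. The differences of the 8 ran from -0.37 to 1.35. Cenpm, of the CENP-HIKM complex, differed most of all members. Its brightest probe had 9.48, 9.22, 9.71 and 9.23 in rescued cells, against 8.13, 8.11, 7.77 and 8.24 in knockout cells. The lowest rescued array stood almost 1 log2 unit above the highest knockout array, and the difference was 1.35 (SE 0.135, adjusted p = 7.51e-05). The other 2 Cenpm probes differed by 1.30 and 1.31. Cenpm lies on chromosome 15, whose 512 kept probes had a median difference of 0.21, and with each chromosome centred it differed by 1.09 (adjusted p = 0.000189).

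Of its partners in the CENP-HIKM complex, Cenpi and Cenpk rose and Cenph did not pass, and whether they differed from Cenpm was not tested. Cenpi had 8.44, 8.67, 9.23 and 8.62 in rescued cells, against 7.90, 7.82, 7.98 and 8.06 in knockout cells, a difference of 0.80 (adjusted p = 0.00296). Cenpk had 7.73, 7.78, 7.90 and 7.84 in rescued cells, against 7.16, 7.21, 7.15 and 7.03 in knockout cells, a difference of 0.68 (adjusted p = 9.18e-05). Neither gene overlapped between groups, and a second Cenpk probe was not detected on any array. Cenph had 7.15, 6.91, 7.54 and 7.36 in rescued cells, against 6.84, 7.13, 7.05 and 6.71 in knockout cells. Its groups overlapped and the difference of 0.31 did not pass (adjusted p = 0.122), but without rescued replicate 2 it was 0.42 and passed (adjusted p = 0.0377).

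Cenpn, which reads the CENP-A nucleosome, had 10.03, 10.06, 10.19 and 10.01 in rescued cells, against 9.40, 9.54, 9.44 and 9.42 in knockout cells. The arrays of each group lay close together, and the difference was 0.62 (SE 0.070, adjusted p = 0.00014), with 0.64 at its second probe. Cenpl, its partner, had no probe by symbol here. Of the CENP-OPQUR complex, Cenpp had 9.26, 9.44, 9.82 and 9.14 in rescued cells, against 8.40, 8.11, 7.99 and 8.13 in knockout cells, a difference of 1.26 (SE 0.149, adjusted p = 0.000193). Cenpq had 8.36, 8.65, 8.19 and 8.56 in rescued cells, against 7.26, 7.91, 7.90 and 7.92 in knockout cells, a difference of 0.69 (adjusted p = 0.00883). Knockout replicate 1 was lowest for Cenpq by a wide gap, and without it the difference was 0.53 (adjusted p = 0.00884). Both probes of Cenpo, of the same complex, and the probe of Cenpc1, which bridges centromeric chromatin and the outer kinetochore, were not detected on any array. Itgb3bp, a gene of the CENP-OPQUR complex outside the member list, differed by 0.11 and did not pass (adjusted p = 0.274 in limma). Itgb3bp was chosen after its values were seen.

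Cenpt, which links the inner kinetochore to the NDC80 complex, was the single member that fell. It had 11, 10.91, 10.86 and 11 in rescued cells, against 11.40, 11.23, 11.21 and 11.42 in knockout cells. The groups did not overlap, and the difference was -0.37 (SE 0.076, adjusted p = 0.00428), the knockout mean being 1.29-fold higher. CENP-T works with CENP-W, CENP-S and CENP-X, whose genes are not members. Of these, Cenpx also fell, with 6.19, 6.29, 5.73 and 5.89 in rescued cells, against 6.81, 7.06, 7.14 and 6.88 in knockout cells, a difference of -0.95 (adjusted p = 0.000543). Its 2 other kept probes differed by only -0.23 and -0.21. Cenps rose by 0.35 (adjusted p = 0.0152), averaging 9.08 ± 0.123 on rescued and 8.73 ± 0.139 on knockout arrays (SD, n = 4 each), and was chosen after its values were seen. CENP-S and CENP-X also serve in the repair of crosslinked DNA.

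The outer kinetochore holds the microtubule-binding NDC80 complex and the MIS12 complex that anchors it. Of its 8 members, 6 were measured, 2 rose, 0 fell and 4 did not pass, where 21.0% of all genes rose. Ndc80, the microtubule-binding subunit, had 9.75, 10, 9.95 and 9.97 in rescued cells, against 9.12, 9.05, 8.87 and 8.99 in knockout cells. Every rescued array exceeded every knockout array, with a difference of 0.91 (SE 0.084, 1.88-fold, adjusted p = 4.41e-05). A second Ndc80 probe was not detected on any array, nor was the probe of Nuf2, the obligate partner of NDC80, whose deposited intensities ran from 86.8 to 91.3 on rescued and from 86.6 to 96.0 on knockout arrays.

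Spc25, of the end of the complex that faces the centromere, had 9.38, 9.25, 9.59 and 9.23 in rescued cells, against 8.96, 8.84, 8.94 and 8.98 in knockout cells. The groups did not overlap, and the difference was 0.44 (adjusted p = 0.00429), with 0.59 at its other probe (adjusted p = 0.00101). Spc24, its partner, had 8.54, 8.78, 9.55 and 8.99 in rescued cells, against 8.52, 8.55, 8.40 and 8.32 in knockout cells at the brightest probe. There rescued replicate 1 lay within the knockout range, and the difference of 0.52 did not pass (adjusted p = 0.053). At the other Spc24 probe the values were 8.53, 8.62, 9.30 and 8.66 in rescued cells, against 8.09, 7.75, 7.72 and 7.98 in knockout cells, a difference of 0.89 that passed (adjusted p = 0.00268). The average of both probes differed by 0.71 (adjusted p = 0.00906). At the brightest probe the call also passed without background correction (0.44, adjusted p = 0.0291), and without rescued replicate 1 (0.66, adjusted p = 0.0189) or rescued replicate 3 (0.32, adjusted p = 0.049). It passed narrowly in limma over probes detected on all 8 arrays (adjusted p = 0.0456), and with another variance model or array weights (adjusted p = 0.0454 in each). That probe did not pass with each chromosome centred (0.38, adjusted p = 0.129). Nor did it pass without rescued replicate 2 or 4 or any 1 knockout array (adjusted p from 0.0564 to 0.119). With median scaling, no detection filter, the replicate block or the deposited values it did not pass either (adjusted p from 0.053 to 0.0896 in limma).

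Of the MIS12 complex, which joins NDC80 to the centromere, 3 of 4 genes were measured and 0 passed, with differences from 0.18 to 0.32. Dsn1 had 6.46, 6.78, 6.50 and 6.65 in rescued cells, against 5.82, 6.26, 6.58 and 6.46 in knockout cells (difference 0.32, adjusted p = 0.14). Mis12 was dim, detected on 3 rescued and 1 knockout arrays, with 5.80, 5.10, 5.78 and 5.21 in rescued cells, against 5.24, 5.29, 5.40 and 5.25 in knockout cells (difference 0.18, adjusted p = 0.419). In both genes the groups overlapped. Pmf1 had 7.92, 7.96, 7.93 and 7.85 in rescued cells, against 7.82, 7.69, 7.57 and 7.84 in knockout cells (difference 0.18, adjusted p = 0.0933). The Pmf1 groups just failed to overlap. Pmf1 lies on chromosome 3, whose 600 kept probes had a median difference of -0.18, and with each chromosome centred it differed by 0.38 and passed (adjusted p = 0.00729). Nsl1 was detected on 2 rescued arrays and 0 knockout arrays and was not tested. Whether the MIS12 genes differed less than the NDC80 genes was not tested.

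Of 7 spindle checkpoint genes, 5 were measured, of which 4 rose and Bub3 did not pass, where 21.0% of all genes rose. Bub1b, which encodes BUBR1, a part of the complex that inhibits anaphase, had 9.02, 8.97, 9.25 and 9.04 in rescued cells, against 8.10, 8.15, 7.99 and 8.08 in knockout cells. Mad2l1, which encodes MAD2, the subunit that captures CDC20, had 11.45, 11.71, 11.66 and 11.63 in rescued cells, against 10.59, 10.61, 10.62 and 10.75 in knockout cells. Neither gene overlapped, and they differed by 0.99 (SE 0.080, adjusted p = 1.97e-05) and 0.97 (SE 0.079, adjusted p = 1.99e-05). Bub3, the adaptor that carries BUB proteins to the kinetochore, had 9.14, 9.19, 9.03 and 9.18 in rescued cells, against 8.96, 9.04, 9.05 and 9.08 in knockout cells. Its groups overlapped, with a difference of 0.10 (adjusted p = 0.27). Partners of MAD2 outside the member list, chosen after their values were seen, were Mad1l1, which differed by -0.09 (adjusted p = 0.468), and Mad2l1bp, which differed by 0.04 (adjusted p = 0.66).

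Zwilch and Zw10 encode parts of the RZZ complex, which brings dynein and MAD proteins to the kinetochore. The brightest Zwilch probe had 7.17, 6.75, 6.75 and 7.12 in rescued cells, against 5.93, 6.09, 6.26 and 5.87 in knockout cells. Its groups were well apart, with a difference of 0.91 (adjusted p = 0.000549), and its 2 other kept probes were higher by 0.54 and 0.50, the second being detected on 1 knockout array. Zw10 had 8.99, 9.17, 9.22 and 9.15 in rescued cells, against 8.81, 8.59, 8.76 and 8.94 in knockout cells. The groups were separate but close, with a difference of 0.36 (adjusted p = 0.0109). A second Zw10 probe was higher by 0.49 (adjusted p = 0.000449). The dimmest Zw10 probe differed by -0.10 (adjusted p = 0.697). It was detected on only 2 rescued and 3 knockout arrays, so its signal near background limits what it can show. The average of the 3 probes, the dim one included, did not pass (0.25, adjusted p = 0.0538). Nor did the brightest with each chromosome centred (0.23, adjusted p = 0.0725).

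The probes of Bub1 and Ttk, the kinases that start checkpoint signalling, were not detected on any array, with deposited intensities from 91.6 to 101 and from 92.2 to 112 over rescued arrays and from 93.3 to 101 and from 94.5 to 100 over knockout arrays. Neither was the probe of the kinesin gene Cenpe, and Cenpf, like CENP-E a protein of the outermost corona, had no probe by symbol. These genes have no measured difference here, and the probes do not show whether their transcripts were present.

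**Figure D3:**
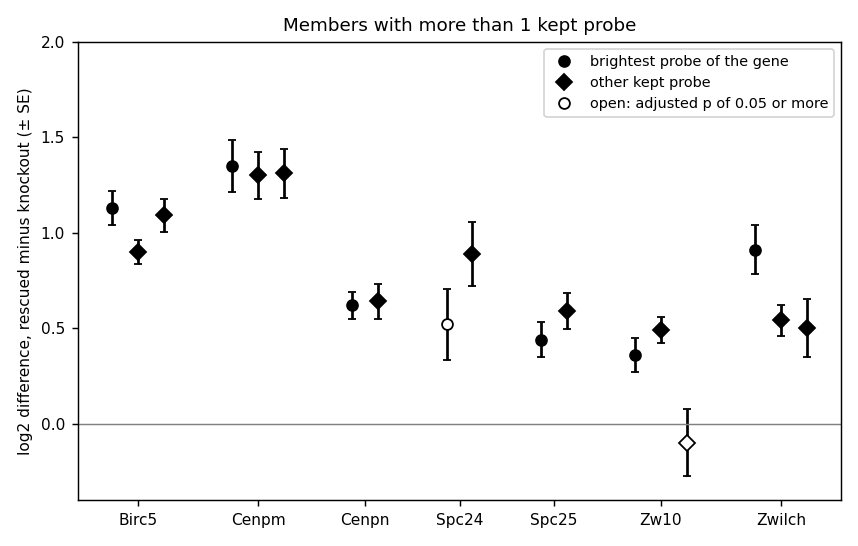
Log2 difference (rescued minus knockout, with SE) at each kept probe of the 7 members that had more than 1; circles are the brightest probe of a gene, diamonds its other probes, and open symbols did not pass. The 3 probes of Cenpm lie between 1.30 and 1.35, while probes of Spc24 and Zw10 fall on both sides of the threshold.

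All 3 measured genes of the chromosomal passenger complex rose, beside 21.0% of all genes. Birc5, which encodes survivin, had 12.34, 12.38, 12.51 and 12.25 in rescued cells, against 11.36, 11.09, 11.19 and 11.35 in knockout cells at its brightest probe. The groups were far apart, with a difference of 1.13 (SE 0.088, 2.19-fold, adjusted p = 1.63e-05), and the 2 other probes differed by 0.90 and 1.09. Incenp, the scaffold of the complex, had 9.85, 9.97, 10.22 and 10.02 in rescued cells, against 9.42, 9.27, 9.37 and 9.42 in knockout cells. Its difference was 0.64 (SE 0.088, adjusted p = 0.000468). Cdca8, which encodes borealin, had 9.32, 9.60, 9.48 and 9.27 in rescued cells, against 8.98, 8.98, 8.78 and 9.01 in knockout cells. Neither Incenp nor Cdca8 overlapped between groups, and Cdca8 differed by 0.48 (SE 0.094, adjusted p = 0.00314). The kinase gene Aurkb had no probe by symbol here.

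Other kinetochore and checkpoint genes, a list of 31 outside the members, had 18 measured, of which 12 rose (66.7%), 1 fell and 5 did not pass. Their median difference was 0.58. By comparison, 21.0% of all genes rose and 18.9% fell. Sgo1, which protects centromeric cohesion, had 9.64, 9.74, 9.74 and 9.68 in rescued cells, against 8.99, 8.96, 9.00 and 8.92 in knockout cells (difference 0.74, adjusted p = 2.39e-05). Plk1, a mitotic kinase, differed by 0.80 (adjusted p = 5.08e-05) and Knstrn, which encodes a spindle and kinetochore adaptor, by 0.82 (adjusted p = 7.52e-05). Cdc20, which encodes the activator of the anaphase-promoting complex that the checkpoint restrains, differed by 0.67 (adjusted p = 0.000144), its 3 other probes by 0.65 to 0.76. The 1 gene that fell was Cenpx.

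The anaphase-promoting complex marks securin and cyclins for destruction once the checkpoint is satisfied. Of 15 measured genes of the complex and its targets, 5 rose (33.3%), 1 fell and 9 did not pass, where 21.0% of all genes rose and 18.9% fell. Among the 13 detected on all 8 arrays, 4 rose. The median difference was 0.22. Pttg1, which encodes securin, had 7.65, 7.99, 8.37 and 7.64 in rescued cells, against 6.09, 6.29, 5.90 and 6.08 in knockout cells (difference 1.82, adjusted p = 3.51e-05). Espl1, which encodes separase, the protease that securin holds, had 9.05, 9.01, 9.14 and 9.04 in rescued cells, against 8.31, 8.10, 8.20 and 8.20 in knockout cells (difference 0.86, adjusted p = 2.1e-05). Both were separate on every array. Of subunits, Anapc5 rose by 0.33 (adjusted p = 0.00422) and Anapc2 fell by 0.26 (adjusted p = 0.0179). Anapc11, kept through rescued arrays alone and so able to count only as a rise, was at least 1.23-fold higher (adjusted p = 0.00207), with measured means of 5.61 on rescued and 4.96 on knockout arrays; the bound sets the rescued mean against the lowest level of detected probes on the knockout arrays.

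Lists of neighbouring functions stood beside these without a test between lists, and the share of all genes that rose was 21.0%. Of 15 measured mitotic kinesin, spindle and cytokinesis genes, 15 rose, with a median difference of 0.78 and Kif23 (1.18), Kif15 (0.94), Prc1 (0.85) and Aurka (0.65) among them. Of 17 measured replication origin licensing genes, 13 rose (76.5%) and 0 fell. Their median difference was 0.64, and Mcm6 (1.06), Mcm2 (0.90), Mcm10 (0.81) and Mcm5 (0.72) were among those that rose. The members' share of 68.0% and median of 0.64 lay near those of the licensing genes, which act earlier in the cycle. Whether any list differed from another was not tested.

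**Figure D4:**
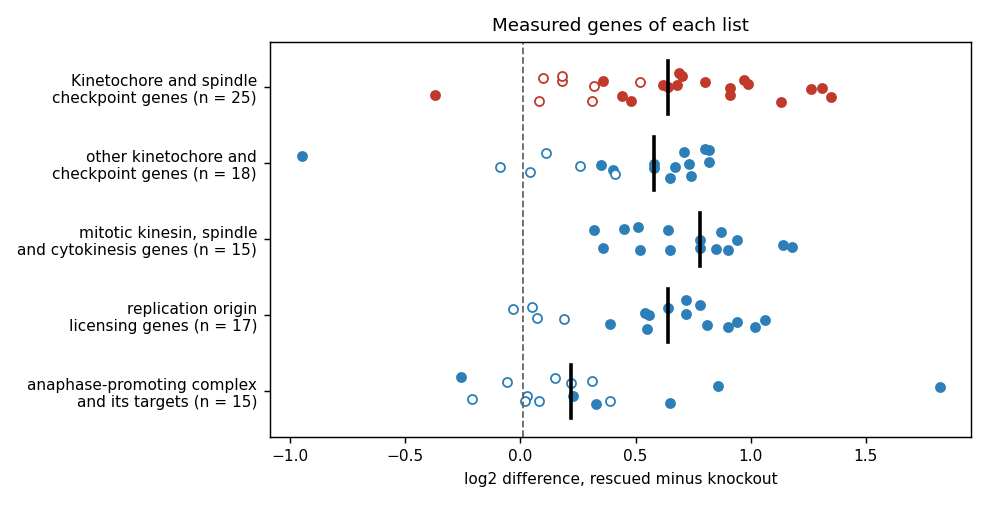
Log2 difference (rescued minus knockout) of each measured gene, by list, with filled circles for genes that passed, open circles for those that did not, black bars at list medians and a dashed line at the median of all measured genes (0.01). Medians are 0.64 for the members, 0.58 for other kinetochore genes, 0.78 for mitotic kinesin genes, 0.64 for licensing genes and 0.22 for the anaphase-promoting complex and its targets; vertical scatter within a list has no meaning, and Anapc11 is drawn at its fitted value.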

How the data were processed

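Transcripts were measured on 8 1-colour Illumina bead arrays of biotin-labelled cRNA, 4 per group by the titles in the labels. The authors deposited an intensity per probe and array that is not normalized, per the file headers, beside a detection p-value that the authors deposited for each. They also deposited log2 values, for which the sources used here state no processing; per array these differed from the log2 values computed here by at most 0.0266. Scanner software and genome build: not given in the sources used here.

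Intensities were corrected and quantile-normalized with neqc (offset 16) in limma 3.58.1 under R 4.3.3, using the detection p-values, then fitted with lmFit and eBayes; adjusted p-values are Benjamini-Hochberg over 12658 kept probes. Normalization would remove a shift of most transcripts together. Of 25697 probes, 23978 had 1 platform symbol, 0 several and 1719 none; 23962 matched RefSeq of GRCm38.p6 by gene identifier. Members and lists were chosen with earlier results of these data known. Values on every array are given for the 3 members per role with the smallest p, those not passing and those whose probes disagree. With the remaining members these came to all 25. Of each other list, up to 4 genes with the smallest p and those that fell are named, many by their difference alone. In simulated data of 12658 probes, limma called 71% of 100 that were set 1.5-fold apart, 88% of 100 set 2-fold apart and 12 that were left alone. Only these sets of 100 were changed there, while 38.8% of kept probes were called in the data. The adjusted threshold depends on that share, so these rates do not carry over to the data. Same-numbered replicates of the groups did not deviate together (correlations from -0.0814 to -0.0030), and nothing in the labels pairs them. Alternatives were other background corrections, scalings, detection filters, variance models, array weights, the replicate block, the deposited values, probe averages, thresholds, chromosome centring and each array left out.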

Additional observations from a re-analysis of the deposited data

Results flagged for a closer look

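In 92 groups of 4 arrays, taken from measured members, named genes of other lists and totals per array, 6 held an array that lay far from the other 3 by Dixon's test at its 95% critical value. Chance marks about 1 in 20 groups. Cenpa stood at 13.87 on rescued replicate 3, with the other rescued arrays from 13.50 to 13.54, and its difference without that array was 1.23 (adjusted p = 5.13e-06 in limma). Cdc20 was likewise highest on rescued replicate 3, at 12.35, the others lying from 12.11 to 12.14. Plk1 was lowest on rescued replicate 1, at 11.67, with the others from 11.77 to 11.78, and Knstrn on rescued replicate 4, at 8.60, with the others from 8.77 to 8.80. Among knockout arrays, Cenpq was lowest on replicate 1, at 7.26, with the others from 7.90 to 7.92, and Cdca8 on replicate 3, at 8.78, with the others from 8.98 to 9.01. Leaving out the array in question kept the calls of Cenpa, Cenpq and Cdca8. No cause of these values was tested.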

How the results depend on the processing

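Over all alternatives, 483 of 499 member results kept their direction and their side of the threshold, 7 lost and 9 gained a call, and 0 changed direction. Many of these could not have changed direction. The thresholds, detection filters, variance models and replicate block left the member differences as they were. The deposited values nearly equal those computed here, and a stricter threshold could only remove calls. Leaving out 1 array in turn gave 17 to 18 members higher and 1 lower in every case, with a median difference from 0.58 to 0.70, and over all probes 4141 to 5056 calls. By list it gave 12 to 13 other kinetochore genes, 4 to 6 genes of the anaphase-promoting complex and its targets, 15 to 15 mitotic kinesin genes and 13 to 14 licensing genes higher. With the replicate block, 17 members were higher and 1 lower, and 4206 probes were called; this block changed no call of a member. An adjusted p under 0.01 left 3037 probes and 16 members higher. Asking for at least 1.5-fold left 1765 probes, 14 members higher and 0 lower, and 3 genes of the anaphase-promoting complex list, by construction. The median member difference was 0.48 without background correction and 0.46 with no detection filter, the last over 32 genes, of which 7 were not kept otherwise; the cause of the first was not tested. Signal near background limits Mis12, Nsl1, the dimmest Zw10 probe and the 9 member probes not detected on any array.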
